A study of Canis lupus familiaris with 36 samples.

Results

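What ibrutinib (Ibr) adds to cells that already receive AS-605240 (AS) was measured at 72 h in CLBL-1, a line of malignant B cells grown from the lymphoma of a dog. The comparison takes 6 of the 36 libraries of the series: the 3 libraries labelled Ibr + AS 72 h against the 3 labelled AS 72 h, with each pair taken from cells of the same passage (replicates 1, 2 and 3 are different passages). The Ibr + AS cells had been kept with 1 μM Ibr and 5 μM AS for 72 h, and the AS cells with 5 μM AS alone for 72 h. AS is thus present on both sides, as is DMSO, the solvent of both inhibitors, and no untreated cells enter the comparison. The study set the DMSO dose of its control to that of the combination and does not state the dose of the AS cells. For setting, 5 libraries of Ibr 72 h (1 μM Ibr) and DMSO 72 h (solvent only) and the same Ibr + AS and AS groups at 24 h and 48 h were also used. The replicates are passages of 1 established line, so p-values describe the spread between cultures of that line and not between dogs.

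Ibr binds covalently to Bruton's tyrosine kinase (BTK), which carries the signal of the B-cell receptor to phospholipase C, calcium, NFAT, NF-kB and the MAP kinases. AS inhibits phosphoinositide 3-kinase gamma (PIK3CG). PI3 kinases make the membrane lipid that recruits BTK as well as AKT, and AKT in turn drives mTOR and keeps FOXO transcription factors out of the nucleus. The early growth response factor EGR1 and its corepressor NAB2 are classic targets of B-cell receptor and MAP kinase signals, FBXO32 is a classic FOXO target, and SREBF2 drives the genes of sterol synthesis downstream of mTOR among other inputs. The genes of BTK and PIK3CG themselves could not be paired with a gene identifier and have no value here.

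The 6 libraries held between 9941919 and 12736326 reads on genes, and the top 50 genes by count made up 17.5% to 21.9% of each. Of the 3 Ibr + AS libraries at 72 h, 2 did not lie nearest to their own group. Replicate 1 had a mean distance (Euclidean, over log2 CPM, where CPM is a count scaled by the size of its library) of 81.68 to the Ibr 72 h libraries and 82.83 to its own group, and replicate 3 had 81.73 to the Ibr + AS 48 h libraries and 85.13 to its own group. Each AS library lay nearest to the other AS 72 h libraries. These means are not equal in passage. A mean to the own group held only other passages, whereas a mean to another group could also hold the library of the same passage. The study's sample sheet lists the 72 h harvest of replicate 3 more than a week after its 48 h harvest, whereas the other replicates were harvested on consecutive days. The numbering in the column headers starts again partway, which was read here as a change of sequencing run, though no label names a run. Replicate 1 was in the first of these inferred runs, and the 72 h libraries of replicates 2 and 3 were in the second. All 7 markers of T and NK cells that could be paired averaged under 1 CPM, whereas the 5 myeloid markers summed to 249.6 to 416.8 CPM and TNFRSF13C, the receptor of the B-cell survival factor BAFF, stood at 99.7 to 236 CPM. Of 8 B-cell markers only TNFRSF13C and DLA-DRA could be paired, and the others, CD79A, MS4A1 and PAX5 among them, have no value here.

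Adding Ibr to AS for 72 h changed 601 of 18670 genes tested (3.22%), of which 261 (1.4%) were higher and 340 (1.82%) were lower. These are differentially expressed genes (DEGs), with an adjusted p of at most 0.05 (quasi-likelihood test of edgeR, adjusted over all genes by Benjamini-Hochberg) and an absolute log2 fold-change (log2 FC) above 1. On the adjusted p alone, without the limit on size, 1351 genes rose (7.24%) and 1540 fell (8.25%). The median log2 FC over all genes tested was 0.01. Among the DEGs, 584 of 601 moved the same way in all 3 passages. The values of both groups did not overlap for 240 of the 261 higher DEGs and 327 of the 340 lower DEGs, whereas this was so for 24.2% of all genes tested. Since DEGs were chosen on these same 6 libraries, these counts only describe them. Without Ibr + AS replicate 1 there were 699 DEGs and without Ibr + AS replicate 3 there were 426, of which 164 were higher.

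**Figure D1:**
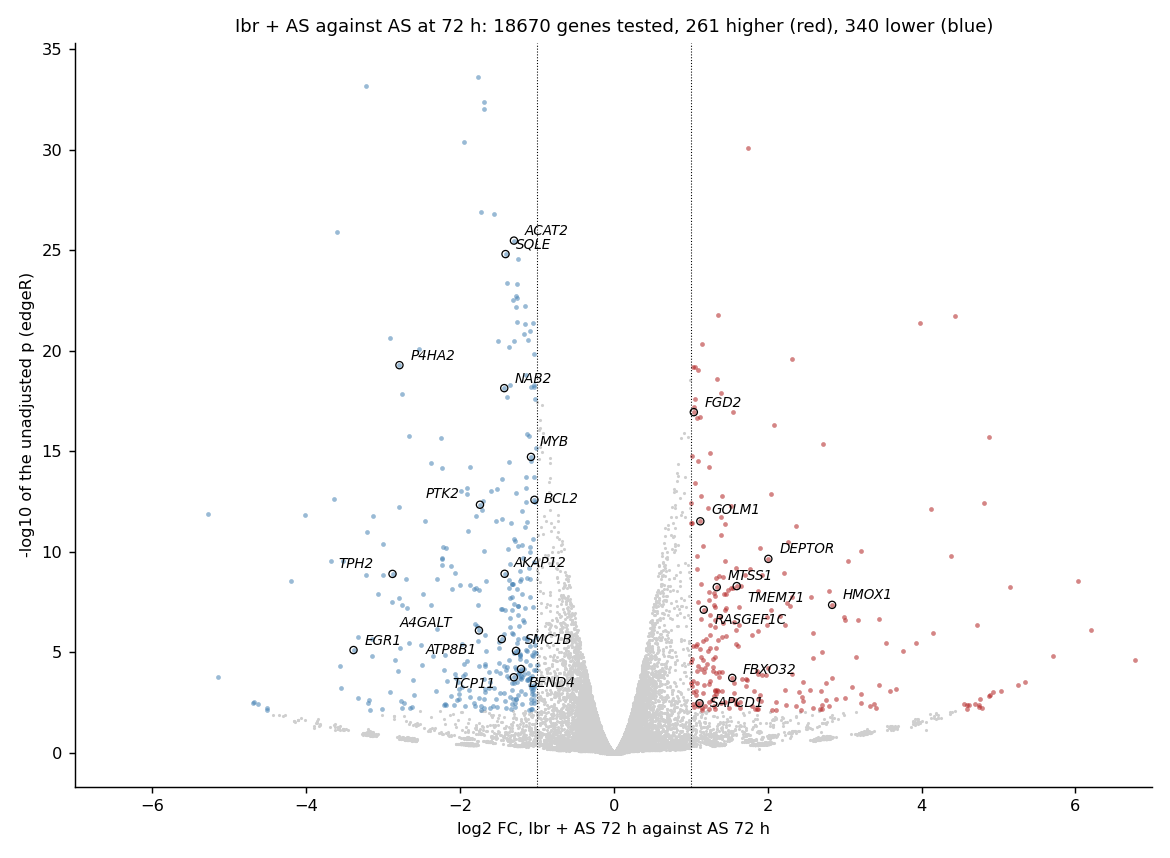
Each point is 1 of the 18670 genes tested, with the log2 FC of Ibr + AS against AS at 72 h on the x axis and the -log10 of the unadjusted p of edgeR's quasi-likelihood test on the y axis. The 261 higher DEGs are red, the 340 lower DEGs are blue, dotted lines mark the limits of log2 FC, and circled genes are named in the text, from EGR1 at -3.38 to HMOX1 at 2.84.

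The size of the response differed among the passages. Among 436 DEGs whose mean level reached 1 CPM, the 174 higher DEGs had a median log2 change of 1.01 in replicate 1, 1.42 in replicate 2 and 1.62 in replicate 3. The 262 lower DEGs had -1.28, -1.33 and -1.53. Replicate 1 therefore gave the smallest median in both directions.

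A gene symbol could be paired with 1068 of the genes tested, and 30 of these (2.81%) were DEGs, 11 higher (1.03%) and 19 lower (1.78%). The gene with the largest rise among those named was HMOX1 (ENSCAFG00000001711), heme oxygenase 1, which breaks down heme and is a classic gene of the oxidative stress response. Its level was 4.93, 6.40 and 6.06 CPM in AS replicates 1, 2 and 3, and 25.6, 37.9 and 62.0 CPM with Ibr + AS. Every Ibr + AS library thus stood above every AS library. The log2 FC was 2.84 (standard error 0.34, adjusted p = 1.77e-06), a fold of 7.15. DEPTOR (ENSCAFG00000000885), a protein that binds mTOR and restrains it, was at 1.00, 1.07 and 1.20 CPM with AS and at 2.58, 5.06 and 5.87 CPM with Ibr + AS. The groups did not overlap, and the log2 FC was 2.01 (standard error 0.29, adjusted p = 1.77e-08).

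MTSS1 (ENSCAFG00000001050), a scaffold that bends membranes and binds actin, was between 7.55 and 8.13 CPM in the AS libraries. With Ibr + AS it had 13 CPM in replicate 1, 25.3 in replicate 2 and 22.2 in replicate 3, so that the rise in replicate 1 was the smallest. The log2 FC was 1.34 (standard error 0.18, adjusted p = 3.03e-07). FGD2 (ENSCAFG00000001444), an exchange factor for the small GTPase CDC42, had 42.9, 43.3 and 41.6 CPM with AS and 75.1, 89.3 and 98.5 CPM with Ibr + AS. Its AS libraries were nearly alike, and its log2 FC of 1.04 (standard error 0.10) fell to 0.95 without Ibr + AS replicate 3, under the limit of size but still past the test. GOLM1, a protein of the Golgi membrane, rose from 59.5 ± 1.22 CPM (SD, n = 3) to 130 ± 17.9 CPM, a log2 FC of 1.12.

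Of the other named DEGs, TMEM71 was at 8.77 to 11.6 CPM with AS and at 19.7, 35 and 36.1 CPM with Ibr + AS, a log2 FC of 1.60 (adjusted p = 2.73e-07). FBXO32, the FOXO target and a substrate-binding subunit of a ubiquitin ligase, was low in both groups, with 0.493 to 0.639 CPM with AS and 1.49 to 1.80 CPM with Ibr + AS. Its log2 FC was 1.54 (standard error 0.40, adjusted p = 0.00246). RASGEF1C, a predicted exchange factor of the Ras family, had a log2 FC of 1.17, which was 0.91 without Ibr + AS replicate 3. SAPCD1 had 5 to 11 reads with AS and 14 to 20 with Ibr + AS, and its log2 FC of 1.11 (adjusted p = 0.0256) no longer passed the test without AS replicate 1, AS replicate 3, Ibr + AS replicate 1 or Ibr + AS replicate 3, with adjusted p between 0.053 and 0.14.

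**Figure D2:**
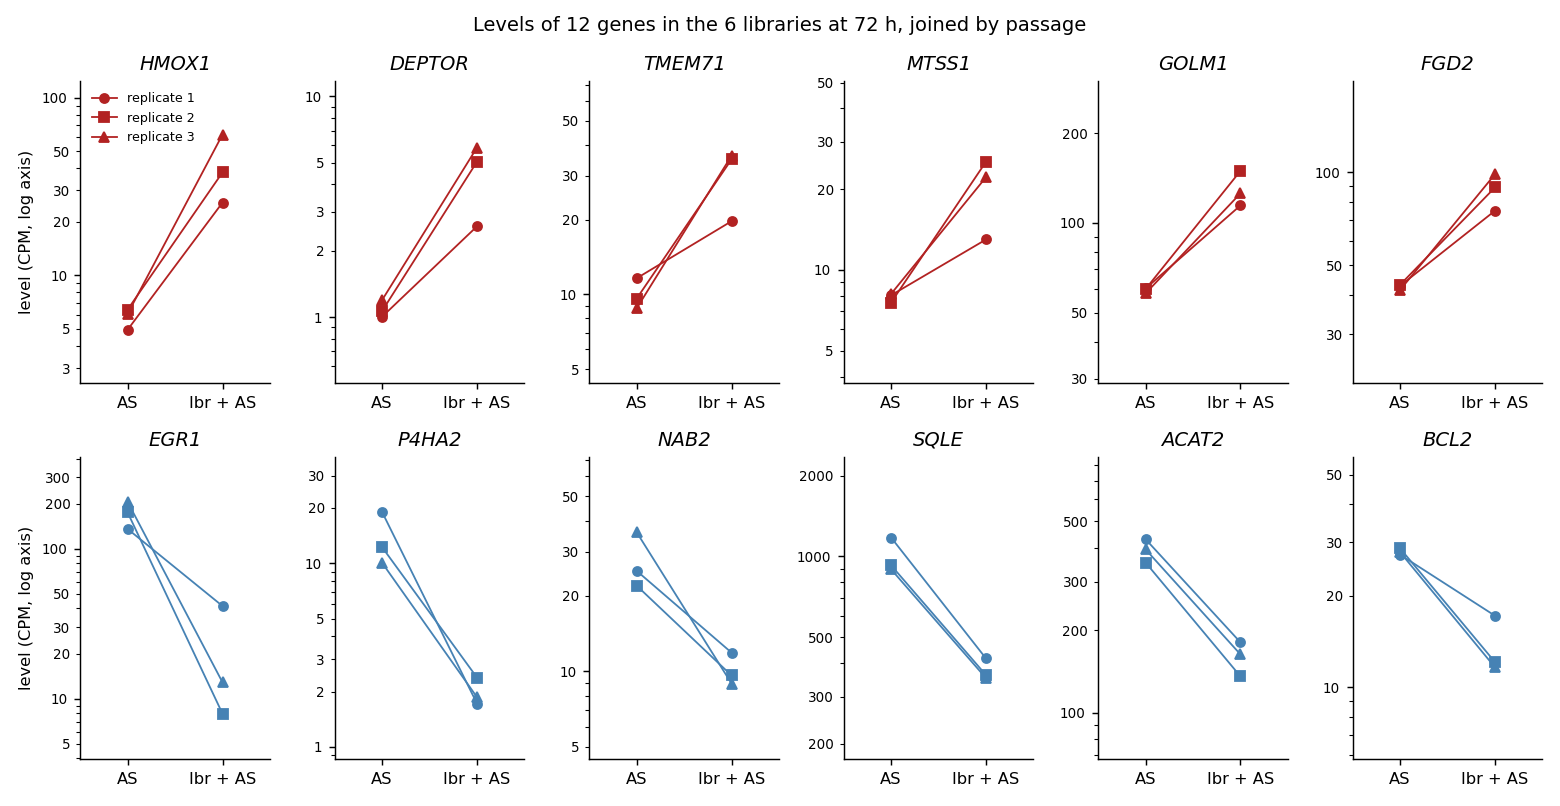
Each panel shows 1 gene, with the level in CPM on a log axis in the 3 AS and the 3 Ibr + AS libraries at 72 h, and each line joins the libraries of 1 passage. The lines of the 6 higher genes (red) all climb and those of the 6 lower genes (blue) all descend; replicate 1 (circles) has the highest EGR1 (41.5 CPM) and the lowest MTSS1 (13 CPM) of the Ibr + AS libraries.

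Among the genes that fell, EGR1 (ENSCAFG00000001254) had 135.6, 175 and 206 CPM with AS and 41.5, 7.94 and 12.9 CPM with Ibr + AS. The groups did not overlap, but the library of replicate 1 kept a clearly higher level than either other Ibr + AS library. The log2 FC was -3.38 (standard error 0.58, adjusted p = 0.000165), and -1.71, -4.45 and -3.99 in the passages one by one. In a fit on the 6 libraries alone it did not pass (log2 FC -3.27, adjusted p = 0.26). NAB2 (ENSCAFG00000000160), the corepressor that binds EGR1, had 25.2, 22 and 36 CPM with AS and 11.9, 9.63 and 8.94 CPM with Ibr + AS, without overlap. Its log2 FC was -1.42 (standard error 0.13, adjusted p = 2.76e-16).

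P4HA2 (ENSCAFG00000000824), a subunit of the collagen prolyl hydroxylase and a classic gene of hypoxia, had 19, 12.2 and 10.1 CPM with AS and 1.72, 2.38 and 1.86 CPM with Ibr + AS. The lowest AS library stood far above the highest Ibr + AS library, and the log2 FC was -2.79 (standard error 0.22, adjusted p = 2.58e-17). SQLE, the squalene epoxidase of cholesterol synthesis, had 1176, 926 and 895 CPM with AS and 416, 361 and 352 CPM with Ibr + AS. Its change was nearly equal in the 3 passages, with log2 changes of -1.50, -1.36 and -1.35 and -1.41 in the fit (standard error 0.10, adjusted p = 2.58e-22). ACAT2, the cytosolic thiolase that starts the mevalonate route, fell from 392 ± 38.3 CPM (SD, n = 3) to 160 ± 22.6 CPM, with an adjusted p of 6.07e-23 for its log2 FC of -1.30 (standard error 0.09).

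BCL2, the inhibitor of apoptosis, had 27.3, 28.6 and 27.8 CPM with AS and 17.2, 12.1 and 11.6 CPM with Ibr + AS. The AS libraries were nearly alike, all Ibr + AS libraries lay below them, and the one of replicate 1 was the highest of the 3. The log2 FC of -1.03 (standard error 0.12, adjusted p = 3.90e-11) was between -0.98 and -0.90 without AS replicate 2, Ibr + AS replicate 2 or Ibr + AS replicate 3, hence under the limit of size though past the test. MYB, a transcription factor of blood cell progenitors, fell from 43.7 ± 5.43 to 20.7 ± 4.05 CPM (SD, n = 3), with a log2 FC of -1.08 that was -0.95 without Ibr + AS replicate 3.

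Other lower DEGs belonged to several kinds of gene. A4GALT, the synthase of the globoside Gb3 (CD77) of germinal centre B cells, had 2.71 to 3.83 CPM with AS and 0.695 to 1.21 CPM with Ibr + AS (log2 FC -1.75, adjusted p = 2.33e-05). PTK2, the focal adhesion kinase, had 7.22 to 8.54 CPM and 1.58 to 3.48 CPM (log2 FC -1.74), and ATP8B1, a flippase of membrane phospholipids, 14.3 to 18.1 CPM and 4.47 to 7.35 CPM (log2 FC -1.46). AKAP12, an anchor of protein kinase A, had 5.94 to 8.45 CPM and 2.05 to 3.13 CPM (log2 FC -1.42). None of these 4 genes had overlapping groups.

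TPH2, tryptophan hydroxylase 2, was low, with 1.97 to 2.47 CPM with AS and 0.0932 to 0.469 CPM with Ibr + AS. It had 26, 24 and 31 reads with AS and only 6, 3 and 1 with Ibr + AS. Its log2 FC of -2.88 (standard error 0.435) thus rests on few reads. TCP11, known from testis, SMC1B, a cohesin subunit of meiosis, and BEND4 had log2 FC of -1.30, -1.27 and -1.21. BEND4 varied most among these: its log2 change was -0.45 in replicate 1 and -2.04 in replicate 3, and without Ibr + AS replicate 3 its log2 FC was -0.90.

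The remaining DEGs with a symbol had few reads or did not move alike in all passages, and were named after their values were seen. TSPAN33, a tetraspanin of B cells, had 8, 9 and 19 reads with AS and 3, 0 and 0 with Ibr + AS, hence it was at least 3.68-fold lower, when 3 counts in each Ibr + AS library are taken as the floor. TNFRSF11A, the receptor RANK, had 1, 7 and 5 reads against 1, 0 and 0, which gives at least 1.31-fold lower by the same floor, and its call was lost in 4 of the 6 fits that leave out 1 library and in the fit on the 6 libraries alone. LRP1, an endocytic receptor, had 1.04 to 1.89 CPM with AS and 0.186 to 0.496 CPM with Ibr + AS (log2 FC -2.35, adjusted p = 0.000291). PNPLA3 (1.24), REEP2 (1.31) and RTL6 (-1.10) had adjusted p between 0.0436 and 0.049 and were lost in 4, 5 and 3 of the 6 fits that leave out 1 library. The log2 changes of PNPLA3 were -1.20, 2.07 and 2.27 and those of RTL6 were 0.11, -0.94 and -2.67.

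Of the 601 DEGs, 571 had no symbol here. Among those whose mean level reached 1 CPM and that had the same direction in all passages, the lowest were ENSCAFG00000014490, which had 43.1, 31.2 and 30.6 CPM with AS and 0.938, 0.993 and 0.745 CPM with Ibr + AS (log2 FC -5.27), and ENSCAFG00000015708 (log2 FC -4.20). The highest were ENSCAFG00000032358, with 2, 2 and 4 reads with AS and 24, 81 and 114 with Ibr + AS, and ENSCAFG00000019993, with 0, 2 and 4 against 76, 116 and 194. In 102 DEGs every library of 1 group held 3 counts or fewer, AS in 63 of them and Ibr + AS in 39, so that their folds rest on very few reads.

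The lists of genes below hold the members with a symbol; a count of members is read against the share of all genes that passed the test on the adjusted p alone, which was 7.24% in the higher and 8.25% in the lower direction, and 11.7% and 13.6% among the 10778 genes whose mean level reached 1 CPM. Of the 14 tested genes of PI3K, AKT, mTOR and FOXO signalling, 3 rose and 1 fell, with a median log2 FC of 0.10. DEPTOR and FBXO32 were the DEGs. AGAP2, a GTPase that enhances PI3K signals, rose from 42.1 ± 5.37 to 67.3 ± 5.03 CPM (SD, n = 3), with a log2 FC of 0.67. SGK1, a kinase activated downstream of PI3K, had a log2 FC of -0.73 with an adjusted p of 0.0478, which was above the limit without 5 of the 6 libraries in turn (up to 0.26). PIK3R1, the regulatory subunit of PI3K, was at 55.5 to 57.7 CPM with AS and at 61.8 to 69.7 CPM with Ibr + AS; the groups did not overlap but the gene did not pass in edgeR (log2 FC 0.23, adjusted p = 0.0936), while it passed with DESeq2 (0.00983) and after filterByExpr (0.0196).

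Of the 17 tested genes of the B-cell receptor, BTK, calcium and NFAT, 5 rose and 2 fell, with a median log2 FC of 0.12. Those that fell were EGR1 and NAB2. Those that rose were DEF6, an exchange factor for RAC and regulator of IRF4 (log2 FC 0.87), TNFRSF13C (0.81), DGKA, which removes diacylglycerol (0.59), SLA, an adaptor that dampens antigen receptor signals (0.59), and RAC2, a GTPase of blood cells (0.54). DEF6 had 72.8 to 80.3 CPM with AS, and each Ibr + AS library stood above that, up to 151 CPM. TNFRSF13C had 99.7, 107 and 117 CPM against 150, 185 and 236 CPM. Neither gene had overlapping groups, and both missed only the limit of size.

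Among 12 tested genes of NF-kB and the TNF family, 2 rose and 2 fell. PIM1, a survival kinase, rose by a log2 FC of 0.51 (adjusted p = 0.00498) and lymphotoxin alpha (LTA) by 0.32, while TNFRSF11A and the mitochondrial superoxide dismutase SOD2 (-0.34) fell. PIM1 did not pass without Ibr + AS replicate 3 (adjusted p = 0.066), LTA without AS replicate 3 (0.17) or Ibr + AS replicate 1 (0.15), and SOD2 without AS replicate 3 (0.056) or Ibr + AS replicate 2 (0.076). TNF itself and TNFAIP3, the brake on NF-kB (log2 FC -0.03), did not pass. Of 10 tested transcription regulators of B cells, 4 rose and MYB fell. MYC, which drives growth, had 167 to 190 CPM with AS and 256, 274 and 279 CPM with Ibr + AS, without overlap (log2 FC 0.60, adjusted p = 5.35e-07). IRF5 rose by 0.63, the corepressor TLE4 by 0.43 and HMGA1 by 0.28.

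None of the 30 tested genes of the cell cycle and DNA replication were DEGs or rose, while 11 fell (36.7%), with a median log2 FC of -0.16. The falls were small: CDC25C, the phosphatase that opens mitosis, went from 39.4 ± 5.81 to 23.6 ± 3.00 CPM (SD, n = 3; log2 FC -0.73), CDK2 had a log2 FC of -0.51, ATAD2 -0.49 and TONSL, a repair factor of replication forks, -0.38. TONSL had a log2 change of -0.05 in replicate 1 and -0.58 and -0.55 in the others, and did not pass without Ibr + AS replicate 3 (adjusted p = 0.057). The remaining members that fell were CDK4, CDC23, FBXO5, RAD21, LMNB1, CEP78 and CDKN2B, whereas the replication helicase gene MCM5 (-0.06) and the mitotic kinesin KIF20A (0.02) did not pass. Of 13 genes of p53 and apoptosis, BCL2, MDM2 (-0.32) and MTBP (-0.31) fell and RRM2B (0.47) and BAG6 (0.37) rose. Both MDM2 and RRM2B are p53 targets, and they moved in opposite directions. MDM2 did not pass without AS replicate 1 (adjusted p = 0.23) or Ibr + AS replicate 1 (0.08), RRM2B without Ibr + AS replicate 2 (0.055), and BAG6 without AS replicate 1 (0.07).

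**Figure D3:**
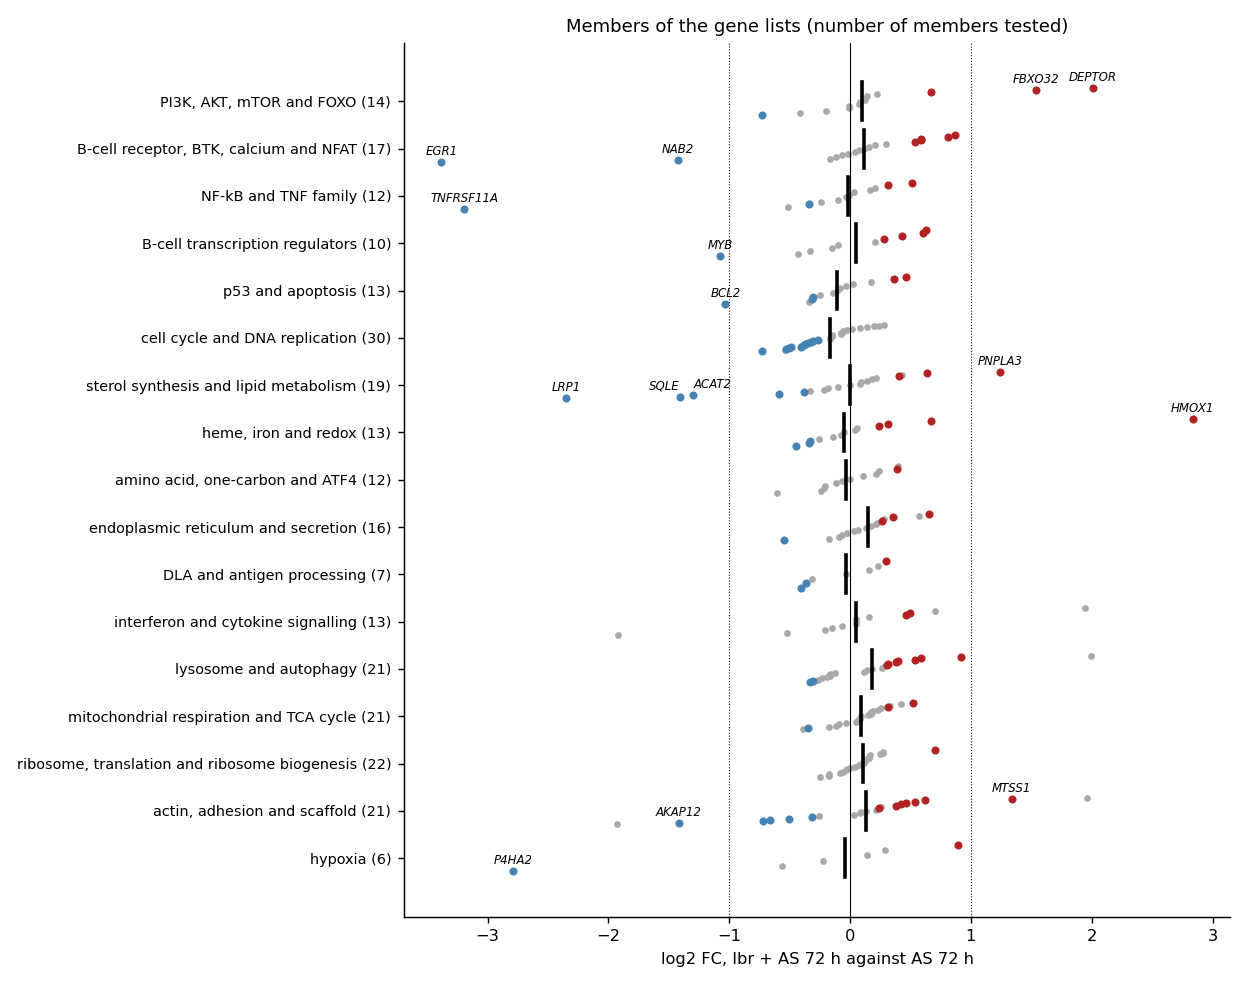
Each point is a gene of the list named at the left, with its log2 FC of Ibr + AS against AS at 72 h on the x axis; red and blue points passed the test on the adjusted p in the higher and lower direction, grey points did not, black bars are medians and dotted lines mark the limit of size. Of the 30 cell cycle genes 11 are blue and 0 are red, and the farthest points are EGR1 at -3.38 and HMOX1 at 2.84.

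Of 19 tested genes of sterol synthesis and lipid metabolism, 5 fell and 3 rose. The 3 tested genes of sterol synthesis fell, with SREBF2, the transcription factor that induces SQLE and ACAT2, at a log2 FC of -0.38 beside the -1.41 and -1.30 of these targets. TSPO, a cholesterol-binding protein of mitochondria, also fell (-0.59), as did LRP1. AGPAT1, which makes phosphatidic acid, rose from 44.4 ± 2.92 to 69.2 ± 10.2 CPM (SD, n = 3; log2 FC 0.64). Of 13 genes of heme, iron and redox, 4 rose and 3 fell. Beside HMOX1, SQSTM1, the autophagy receptor p62, rose in all passages by a log2 FC of 0.67, and TXNRD1, thioredoxin reductase 1, by 0.24. Ferrochelatase (FECH), the last enzyme of heme synthesis, fell (-0.33), as did the iron sensor ACO1 (-0.45), which had a log2 change of 0.01 in replicate 1.

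Genes of the lysosome and autophagy list rose more often than they fell, 7 against 2 of 21 tested, with a median log2 FC of 0.18. The tetraspanin CD63 rose by 0.59, the endosomal membrane gene SLC66A2 by 0.54 and TFEB, the transcription factor of lysosome genes, by 0.31. The adaptor GGA1 rose by 0.38 and did not pass without AS replicate 1 (adjusted p = 0.079). IGF2R, the receptor that delivers enzymes to lysosomes, and ATP6V1C1, a subunit of the proton pump, fell (-0.33 and -0.31). Of 16 genes of the endoplasmic reticulum, CRELD2 (0.66), WFS1 (0.36) and DERL1 (0.26) rose and LMAN1 (-0.55), a cargo receptor for secretion, fell. WFS1 did not pass without Ibr + AS replicate 3 (adjusted p = 0.091), nor DERL1 without AS replicate 1 (0.072), AS replicate 2 (0.11) or Ibr + AS replicate 3 (0.16).

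Of 7 genes of the dog leukocyte antigens (DLA) and antigen processing, the class II genes DLA-DMA (-0.40) and DLA-DRA (-0.36) fell and TAPBP (0.30), which loads class I molecules, rose. DLA-DRA had 3671, 3059 and 3398 CPM with AS and 2079, 2654 and 3190 CPM with Ibr + AS; the groups overlapped, and it did not pass without AS replicate 1 (adjusted p = 0.17) or Ibr + AS replicate 1 (0.25). TAPBP did not pass without AS replicate 1 (0.083), Ibr + AS replicate 1 (0.051) or Ibr + AS replicate 3 (0.053). Reads of DLA genes can be shared among near-identical copies. The interferon regulator IRF1 rose (0.49), as did APOL6 (0.46), and no other of the 13 interferon and cytokine genes passed in this fit. STAT6 passed, lower, without AS replicate 1 (adjusted p = 0.0311). The cytokine subunit IL23A had a log2 FC of 0.70 that did not pass (adjusted p = 0.153).

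Of 22 genes of the ribosome and translation BYSL, a factor of ribosome assembly, passed in edgeR, rising from 119 ± 9.58 to 194 ± 18.2 CPM (SD, n = 3; log2 FC 0.70). With DESeq2, RPL8 (adjusted p = 0.0316) and NHP2 (0.049) passed too, both higher, as they did with RLE factors (0.0384 and 0.043) and with all 36 libraries (0.0379 and 0.0372). Of 21 genes of respiration and the TCA cycle, 2 rose and 1 fell. NDUFA6 (0.52), a subunit of complex I, was higher and CHCHD3 (-0.35), a protein of the inner membrane, was lower. Both calls were lost without some libraries: NDUFA6 did not pass without AS replicate 2 (adjusted p = 0.076), AS replicate 3 (0.052) or Ibr + AS replicate 3 (0.087), and CHCHD3 without AS replicate 1 (0.12) or Ibr + AS replicate 2 (0.097). Of 12 genes of amino acid and one-carbon metabolism PYCR3, an enzyme of proline synthesis, passed in edgeR (0.39), while with DESeq2 the tRNA synthetase genes NARS1 (lower, adjusted p = 0.0392) and VARS1 (higher, 0.0382) and the tRNA exporter XPOT (lower, 0.0477) passed too, and ATF4, the transcription factor of this pathway, had a log2 FC of -0.20 that did not. Actin, adhesion and scaffold genes moved both ways, with 7 of 21 higher and 5 lower. The non-muscle myosin MYH9 was very even among libraries, with 1468 to 1512 CPM with AS and 2121 to 2204 CPM with Ibr + AS (log2 FC 0.54), and PARVG, a parvin of blood cells, rose by 0.62. Of 6 hypoxia genes, P4HA2 fell and PFKFB2, which stimulates glycolysis, rose from 4.12 ± 1.00 to 7.68 ± 1.30 CPM (log2 FC 0.90).

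Of 5 tested markers of myeloid cells, 3 passed, all higher. These were LYZ (87.4 ± 6.72 CPM with AS and 157 ± 19 CPM with Ibr + AS, log2 FC 0.85), TREML2 (0.63) and NCF4 (0.41), while TREM2 had reads in only 1 of the 6 libraries. The summed level of the 5 markers was 249.6 to 258.7 CPM with AS and 353.6 to 416.8 CPM with Ibr + AS. The defining myeloid markers CD14 and CSF1R were not paired, and B cells also express NCF4. The part of other cells in these values was not tested, and in bulk RNA a change in the number of cells of a type cannot be told apart from a change of RNA per cell. The 7 markers of T and NK cells summed to 0.478 to 0.914 CPM and 0.313 to 1.12 CPM, with IFNG and IL13 at 0 in all 6 libraries, and the 10 markers of non-blood tissue to 32.1 to 42.4 CPM and 37.1 to 42.1 CPM, and none of these passed.

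The study also followed DSE, a dermatan sulfate epimerase, and NHSL1, a regulator of cell migration. DSE had 290 to 309 CPM with AS and 336 to 414 CPM with Ibr + AS, without overlap (log2 FC 0.31, adjusted p = 0.00716). This call was lost in the fit on the 6 libraries alone (adjusted p = 0.06) and without both libraries of replicate 2 (0.126). NHSL1 had 1.59 to 3.20 CPM and 0.745 to 1.49 CPM (log2 FC -0.89, adjusted p = 0.0416), and did not pass without AS replicate 1 (0.057), AS replicate 2 (0.46), Ibr + AS replicate 1 (0.052) or Ibr + AS replicate 3 (0.34). Nor did it pass with DESeq2 (0.0647), in edgeR without passage in the fit (0.0519) or on the 6 libraries alone (0.0635).

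The named genes that changed at 72 h had often changed earlier. Beside AS, Ibr gave 889 DEGs at 24 h (4.76%), 684 (3.66%) higher and 205 (1.1%) lower, and 1002 at 48 h (5.37%), 701 (3.75%) higher and 301 (1.61%) lower, whereas at 72 h 340 of the 601 DEGs were lower. Without Ibr + AS replicate 1, 348 were lower and 351 higher, so that falls no longer outnumbered rises at 72 h. Of the 601 DEGs at 72 h, 237 (39.4% of these and 26.7% of the DEGs at 24 h) were DEGs in the same direction at 24 h and 314 (52.2% and 31.3%) at 48 h, with 5 and 3 in the opposite direction. A set of 213 genes were DEGs in the same direction at all 3 times, 142 higher and 71 lower. Over 10778 genes the log2 FC at 72 h correlated with that at 24 h with r = 0.615 and with that at 48 h with r = 0.748, across genes, which are not independent replicates.

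Among DEGs whose mean reached 1 CPM, the 174 higher DEGs of 72 h had median effects of 1.35 (72 h), 1.32 (24 h) and 1.63 (48 h) on the log2 scale, whereas the 262 lower DEGs had -1.30, -0.64 and -0.90. Because the genes were chosen at 72 h, their values at that time are favoured. The difference between the effects was therefore tested over all genes, and it passed both limits for 326 genes between 72 h and 24 h (1.75%), 286 lower (1.53%) and 40 higher (0.214%) at 72 h, and for 129 genes between 72 h and 48 h (0.691%), 119 lower (0.637%) and 10 higher (0.0536%). Without Ibr + AS replicate 1 the latter count was 80 and without Ibr + AS replicate 3 it was 196. A lower difference can mean a larger fall or a smaller rise at 72 h. Among the 340 lower DEGs, 96 were past the limits in the first difference, all of them lower at 72 h. The choice of DEGs at 72 h favours this direction. Among the 261 higher DEGs, 14 had a lower difference from 24 h, hence a smaller rise at 72 h. The other genes with a lower difference from 24 h were not DEGs at 72 h. Of the 255 genes that were DEGs at 72 h and at neither other time, only 28 were past the limits in both differences.

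P4HA2 shows a fall that grew with time in single levels. With AS it had 2.46, 1.70 and 2.44 CPM at 24 h, 3.90, 3.70 and 5.99 CPM at 48 h and 19, 12.2 and 10.1 CPM at 72 h, while with Ibr + AS its libraries stayed between 1.32 and 2.64 CPM at all 3 times. Each AS library of 72 h stood above all AS libraries of 24 h and 48 h, whereas the Ibr + AS libraries of the 3 times overlapped. The effect of Ibr was -0.06 at 24 h (adjusted p = 0.976), -1.11 at 48 h and -2.79 at 72 h, and the difference between 72 h and 24 h was -2.72 (adjusted p = 6.89e-08). NAB2 had a similar course. With AS it was at 12.8 to 14.7 CPM at 24 h and 22 to 36 CPM at 72 h, and with Ibr + AS at 11.3 to 12.8 CPM and 8.94 to 11.9 CPM. SQLE with AS was at 527 to 571 CPM at 24 h and 895 to 1176 CPM at 72 h, and its effect went from -0.98 to -1.41; this difference passed the test (adjusted p = 0.0402) but not the limit of size.

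A4GALT was lower only at 72 h, with effects of -0.17 at 24 h and 0.23 at 48 h that did not pass and differences of -1.58 and -1.98 that did (adjusted p = 0.00451 and 0.00153). For BCL2 the effects were -0.23, -0.77 and -1.03 in order of time. The difference from 24 h passed the test (adjusted p = 0.00065), and that from 48 h did not.

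Other genes had their largest response early. MTSS1 had 38.8 to 61.3 CPM with Ibr + AS at 24 h, 35.3 to 41.0 CPM at 48 h and 13 to 25.3 CPM at 72 h, while with AS it stayed between 4.15 and 8.13 CPM. Its effect of 3.14 at 24 h and 3.00 at 48 h fell to 1.34, and both differences passed the limits (-1.80 and -1.67). TMEM71 went from 72.3 to 105 CPM at 24 h to 19.7 to 36.1 CPM at 72 h, with effects of 3.03, 2.20 and 1.60. MYC had effects of 1.24, 1.04 and 0.60 and IRF1 had 1.20, 1.10 and 0.49; for both, the difference of 72 h from 24 h and from 48 h passed the test. EGR1 (-2.70, -2.48 and -3.38) and HMOX1 (3.44, 3.56 and 2.84) did not differ between times beyond their error (adjusted p of at least 0.595).

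**Figure D4:**
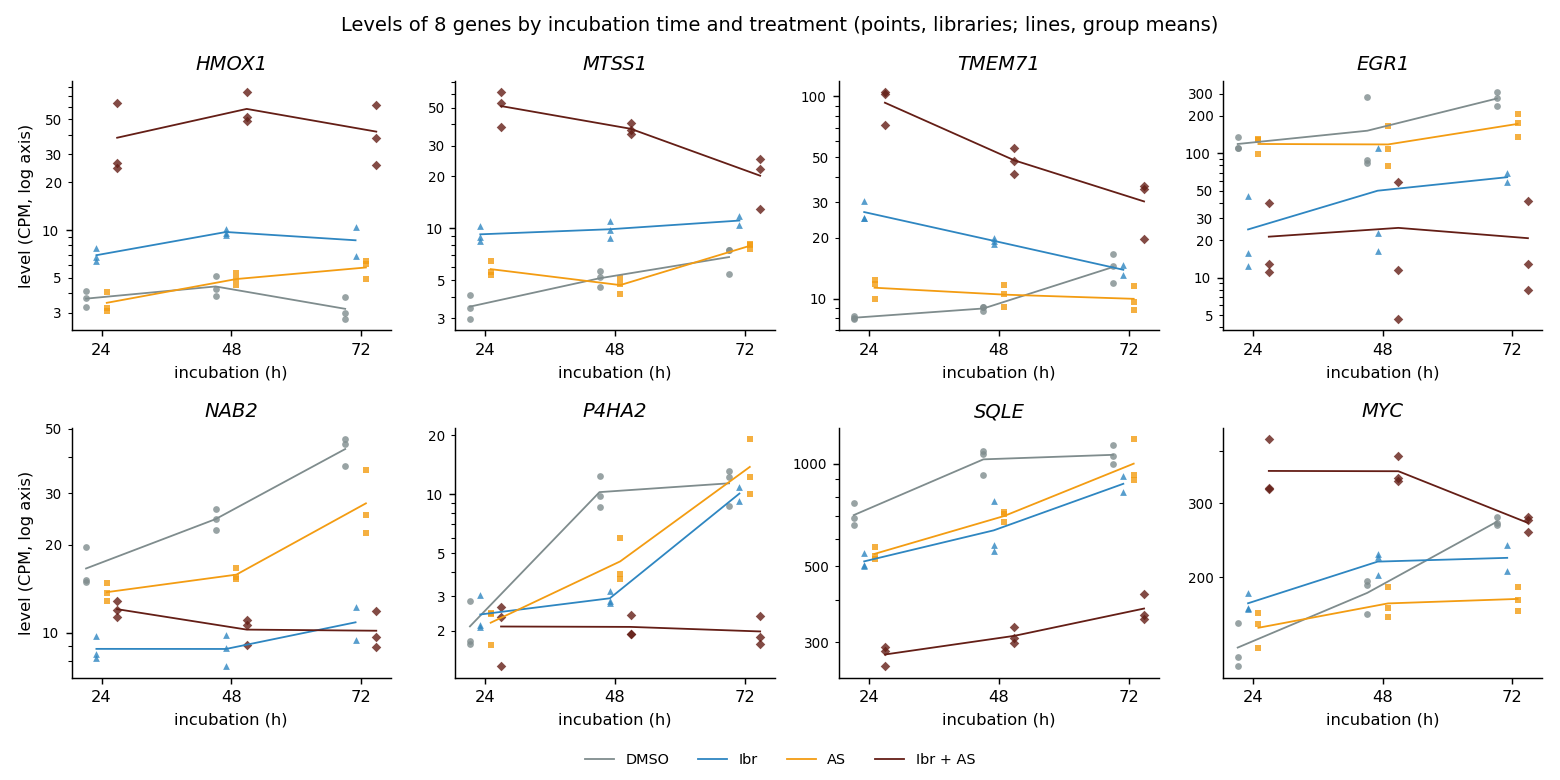
Each panel shows the level of 1 gene in CPM on a log axis at 24, 48 and 72 h, with 1 point for each library and lines through the means of DMSO, Ibr, AS and Ibr + AS; Ibr 72 h has 2 libraries and all other groups have 3. P4HA2, NAB2 and SQLE climb with time under AS but P4HA2 and NAB2 do not under Ibr + AS, MTSS1 and TMEM71 under Ibr + AS descend from 24 h to 72 h, and MYC is at 256 to 279 CPM under Ibr + AS at 72 h, beside 267 to 278 CPM under DMSO.

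Whether Ibr does the same without AS was asked with the libraries of Ibr and DMSO at 72 h. Here the study discarded replicate 3 of Ibr as an outlier, so that the group has 2 libraries. Ibr alone gave 745 DEGs (3.99%), 242 higher (1.3%) and 503 lower (2.69%), and 172 of the 601 DEGs beside AS (28.6% of these and 23.1% of the 745) were among them in the same direction, with 12 in the opposite one. Across 10778 genes both effects correlated with r = 0.442, beside the 0.615 and 0.748 of the earlier times. No library is shared between the sides of these correlations, but the passages are. Of the 261 higher DEGs 70.9% were also higher with Ibr alone and of the 340 lower DEGs 86.2% were lower. Over the 10778 genes, 49.8% were higher and 50.2% were lower with Ibr alone. Where the mean reached 1 CPM, the higher and lower DEGs had medians of 0.60 and -0.68 with Ibr alone.

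The effect beside AS less the effect beside DMSO was past both limits for 488 genes (2.61%), 277 higher (1.48%) and 211 lower (1.13%). Since this difference contains the Ibr + AS and AS libraries, its sign tends to follow the effect beside AS. Of the 601 DEGs, 141 (23.5%) were past the limits in the difference, of which 59 higher and 80 lower DEGs had a difference in the direction of their own change. DEPTOR went in opposite directions. Ibr alone lowered it, from 4.27, 2.82 and 3.47 CPM with DMSO to 1.02 and 1.75 CPM (log2 FC -1.30, adjusted p = 0.00134). Beside AS it rose, as the AS libraries held 1.00 to 1.20 CPM and the Ibr + AS libraries 2.58 to 5.87 CPM. The difference between both effects was 3.30 (standard error 0.43, adjusted p = 5.34e-09). The level of DEPTOR with Ibr + AS overlapped that with DMSO.

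SQSTM1 did likewise, falling with Ibr alone (143 to 156 CPM with DMSO and 84.8 and 87.3 CPM with Ibr, log2 FC -0.77) and rising beside AS, a difference of 1.44 (adjusted p = 2.09e-12). MYC had a log2 FC of -0.29 with Ibr alone (adjusted p = 0.0462), and the difference was 0.90 (adjusted p = 3.43e-06). IL23A, which did not pass beside AS, fell with Ibr alone by 2.18 on the log2 scale, and its difference of 2.88 passed (adjusted p = 9.61e-07). With AS alone it was already at 1.07 to 1.20 CPM beside 5.00 to 8.56 CPM with DMSO.

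P4HA2 was alike in DMSO (8.71 to 13.1 CPM) and Ibr (9.23 and 10.9 CPM), and its difference was -2.60 (adjusted p = 8.64e-10). SQLE had 996 to 1135 CPM with DMSO and 824 and 921 CPM with Ibr (log2 FC -0.31), a difference of -1.10 (adjusted p = 1.29e-08), and ACAT2 differed by -0.67 (adjusted p = 0.000289). BCL2 was at 28.8 to 30.4 CPM with DMSO and at 26.7 and 30.2 CPM with Ibr, and its difference of -0.97 (adjusted p = 4.10e-05) passed the test. These genes thus fell more beside AS than without it.

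For other genes the difference did not pass. EGR1 was lowered by Ibr alone too, from 239 to 308 CPM with DMSO to 58.6 and 69.8 CPM (log2 FC -2.28, adjusted p = 0.0111), and the difference of -1.10 had an adjusted p of 0.53. NAB2 (-1.89), ATP8B1 (-1.60), A4GALT (-1.35) and CDC25C (-0.86) also fell with Ibr alone. GOLM1 (1.62), DEF6 (0.71) and TNFRSF13C (0.79) rose with Ibr alone, and the difference was 0.02 for TNFRSF13C, with a standard error of 0.15. HMOX1 had a log2 FC of 1.43 with Ibr alone (adjusted p = 0.0362) and a difference of 1.40 that did not pass (adjusted p = 0.185). With standard errors of this size, the absence of a pass does not show that the effects were equal.

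**Figure D5:**
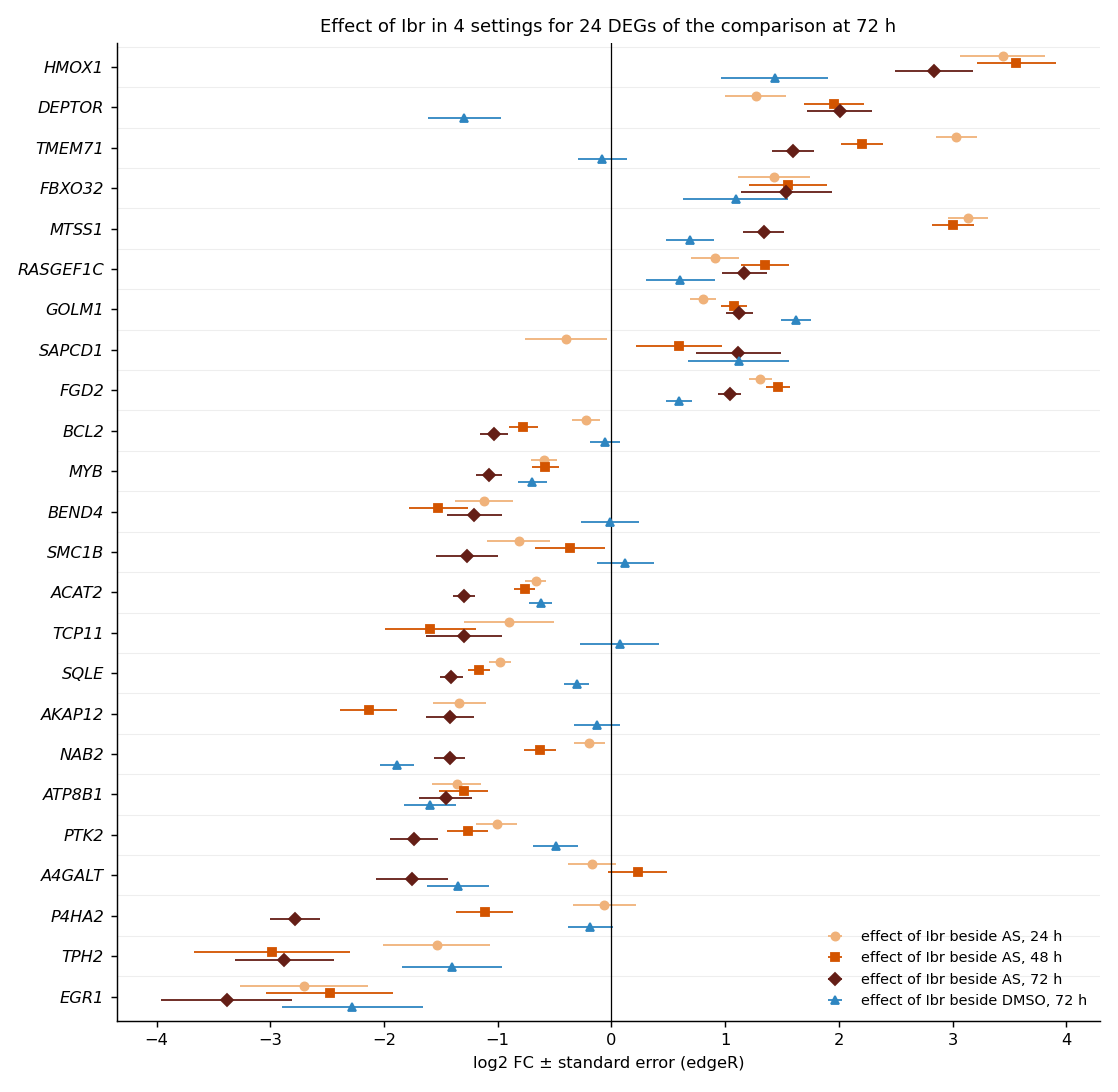
For 24 DEGs of the comparison at 72 h, points give the log2 FC of Ibr on the x axis with its standard error (bars, derived from edgeR's test), beside AS at 24, 48 and 72 h and beside DMSO at 72 h. DEPTOR is at 2.01 beside AS and at -1.30 beside DMSO at 72 h, P4HA2 runs from -0.06 at 24 h to -2.79 at 72 h beside AS, and NAB2 at -1.89 is lower beside DMSO than beside AS.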

How the data were processed

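The authors mapped single-end poly-A reads to CanFam3.1 with STAR 2.7.5a and deposited raw counts per Ensembl gene, with lanes pooled; the strand column kept is not given in the sources used here, so overlapping and antisense genes may share reads. The counts of 35 libraries (the study discarded Ibr 72 h replicate 3) were analysed with edgeR 4.0.16 in R 4.3.3: genes with at least 2 reads, TMM factors, robust quasi-likelihood fits with group and passage as terms, Benjamini-Hochberg adjustment over all genes. CPM values use these factors. DESeq2 1.42.0 was an alternative. The fit was also run on simulated counts without passage effects, with changes well past the limit of size in genes of at least 1 CPM. That run does not cover changes near the limit or genes with few reads.

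Replicates 1, 2 and 3 are 3 passages, by the passage field of the labels; the title of DMSO 24 h replicate 3, which is in the fit but not in the comparison, gives the passage of replicate 2 instead. Deviations from the group means correlated between libraries of 1 passage with a median r of 0.0929 and between others with -0.0348, and the 72 h pairs with -0.163, 0.115 and 0.133. Symbols were paired with 1068 identifiers through the available parts of tables of the study. Nearly all genes named here come from 1 stretch of the identifier numbers and are not a sample spread over all genes. Genes without a symbol could not be named or enter a list. Named genes were DEGs with a symbol, a mean of at least 1 CPM and 1 direction in all passages (up to 14 a direction), up to 4 genes a list by p, and genes fixed from the study. The comparison, its gene lists and these rules were chosen with earlier results of these data known. No genome sequence of this build was used here, so no sequences, coordinates or promoter motifs are given. A few genes that the rules would name are not reported here.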

Additional observations from a re-analysis of the deposited data

Results flagged for a closer look

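Of the named DEGs at 72 h, 10 had an effect of Ibr beside AS that differed from the effect of Ibr beside DMSO, by a test of the difference itself that passed both limits (quasi-likelihood test of edgeR, adjusted over all genes). The difference in log2 FC was 3.30 for DEPTOR (adjusted p = 5.34e-09) and 1.68 for TMEM71 (adjusted p = 0.000258), both higher beside AS. It was -2.60 for P4HA2, -2.28 for LRP1, -1.78 for RTL6, -1.39 for SMC1B, -1.29 for AKAP12, -1.25 for PTK2, -1.20 for BEND4 and -1.10 for SQLE, all lower beside AS. RTL6 (adjusted p = 0.0451), BEND4 (0.0379) and LRP1 (0.0264) were nearest to the limit, and RTL6 was itself a DEG that single libraries decided. DEPTOR is the gene of these that rose beside AS and fell beside DMSO.

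The effect beside AS at 72 h differed from that at 24 h for TMEM71 (-1.44), MTSS1 (-1.80), P4HA2 (-2.72), A4GALT (-1.58) and NAB2 (-1.23). It differed from that at 48 h for MTSS1 (-1.67), P4HA2 (-1.67) and A4GALT (-1.98). TMEM71 and MTSS1 had a smaller rise at 72 h. P4HA2, A4GALT and NAB2 fell at 72 h, whereas their effects at 24 h (-0.06, -0.17 and -0.19) did not pass. At 48 h P4HA2 (-1.11) and NAB2 (-0.63) had fallen less, and A4GALT (0.23) did not pass.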

How the results depend on the processing

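The passages were kept as a replicate block, and without it there were 582 DEGs instead of 601. DESeq2 gave 540, RLE factors 606, filterByExpr 578 and all 36 libraries 604. A term for the sequencing run inferred from the headers gave 598, and the compared groups alone gave 554. Testing for a log2 FC beyond 1 (glmTreat) asks more of each gene and gave 125 DEGs, 49 higher and 76 lower, 48 for the difference from Ibr alone (32 and 16), 27 for that from 24 h (1 and 26) and 4 for that from 48 h (0 and 4), and held 9 of the 23 named DEGs. Leaving out libraries gave 412 to 699 DEGs, 158 to 351 of them higher; 269 to 573 for the difference from Ibr alone (143 to 341 higher, 107 to 232 lower), and 74 to 196 for that from 48 h (3 to 22 higher, 71 to 175 lower). Of the 23 named DEGs, 18 to 23 were held. Over 508 refits of the 30 DEGs with a symbol, 434 kept the call, 74 lost it and 0 reversed.

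List medians moved with single libraries, several across 0: B-cell transcription regulators -0.0164 to 0.228 (0.217 with filterByExpr), NF-kB -0.17 to 0.0441, sterol and lipid -0.109 to 0.0646, heme, iron and redox -0.117 to 0.0648, p53 -0.195 to -0.0468, cell cycle -0.235 to -0.15, interferon 0.0146 to 0.188, lysosome 0.0583 to 0.314, mitochondria 0.0495 to 0.216 and ribosome 0.0323 to 0.158. The cause was not tested. At 9941919 to 12736326 reads a library, 3 counts correspond to 0.235 to 0.298 CPM, so changes of genes near that level could not be measured.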
